A study of Mus musculus with 16 samples.

Results

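The S100 genes described here were S100a1, S100a4, S100a6, S100a8, S100a9, S100a10, S100a11 and S100a13, measured in mouse myeloid progenitors and in a myeloid cell line. They were chosen by name, through the RefSeq accessions of their array probes, and are 8 of the 20284 genes with a named probe. S100 proteins are small calcium-binding proteins that work as dimers. S100A8 and S100A9 form the heterodimer calprotectin, the most abundant protein of the neutrophil cytoplasm, which binds calcium, zinc and manganese, holds metals back from microbes, and signals through Toll-like receptor 4 and RAGE when released. Both are also made by classical monocytes. S100A4 and S100A6 bind cytoskeletal proteins and annexins and are linked to cell movement and growth, S100A10 and S100A11 are partners of annexin A2 and annexin A1, S100A1 regulates calcium handling, and S100A13 takes part in non-classical secretion.

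Total RNA was measured on 16 arrays in 8 groups of 2, from 2 experiments that the submitters describe as independent. Of these groups 4 were primary cells sorted from mouse bone marrow, namely MDPs, which give rise to monocytes and dendritic cells, and cMoPs, the common monocyte progenitors that follow them, each from wild-type (WT) mice and from mice lacking Irf8 (Irf8KO). IRF8 is a transcription factor needed for monocyte and dendritic cell development, and C/EBPalpha is a transcription factor needed for granulocytes. The other 4 groups were 32Dcl.3 cells, a mouse myeloid progenitor line that depends on interleukin 3, grown in medium conditioned by WEHI3B cells. Each received 2 retroviral vectors and was collected 3 days after transduction. The groups held empty MSCV-CD8 and MSCV-puro vectors, MSCV-C/EBPalpha-puro with empty MSCV-CD8, MSCV-IRF8-CD8 with empty MSCV-puro, or both factors on those vectors. The labels give no age, strain or sorting markers, and do not say how many mice gave the cells of an array. The p-values therefore measure the spread between arrays within groups. This spread was pooled over the 4 groups of progenitors or of 32Dcl.3 cells and moderated towards that of other genes.

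The arrays of MDPs were dimmer than the others, with a 75th percentile of processed signal of 67.8 to 81.0 against 456 to 568 for cMoPs and 147 to 460 for 32Dcl.3 cells. Each of the 3 kinds of cells had its own slide, and genotype and factor coincided with positions within it, so effects of position cannot be told apart from theirs. Xist was well above background on all 4 MDP arrays and on none of the 4 cMoP arrays, and the Y-linked gene Ddx3y the reverse, so cell stage, slide and sex of the animals cannot be told apart. Csf1r, Flt3, Cx3cr1 and Mpo, markers of these progenitors, were well above background on all 8 progenitor arrays. In 32Dcl.3 cells Mpo and Csf1r were well above background on 8 of 8 arrays, Flt3 on 6 and Cx3cr1, the fractalkine receptor, on 0. The Irf8 probe remained well above background in the knockouts, where it read -0.55 ± 0.037 (log2 change ± SE) in MDPs and -1.48 ± 0.037 in cMoPs, and the Irf8 and Cebpa probes were well above background on 0 of 8 arrays of 32Dcl.3 cells. The probes' places relative to the deleted part and to the vectors' inserts are not given in the sources used here, so these signals do not check the labels.

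All 8 genes lie on mouse chromosome 3, in the S100 clusters. In RefSeq order S100a8 and S100a9 are neighbours, as are S100a1 and S100a13, and S100a10 and S100a11. The 250 bases before the start of S100a8 and S100a9 are printed because these neighbouring genes are the pair whose signals came together in some groups and apart in others. The windows are from RefSeq on GRCm38.p6, S100a8 from chr3:90668821-90669070 on the plus strand and S100a9 from chr3:90695722-90695971 on the minus strand, each 5′ to 3′. Capitals mark the match to a C/EBP motif.
S100a8: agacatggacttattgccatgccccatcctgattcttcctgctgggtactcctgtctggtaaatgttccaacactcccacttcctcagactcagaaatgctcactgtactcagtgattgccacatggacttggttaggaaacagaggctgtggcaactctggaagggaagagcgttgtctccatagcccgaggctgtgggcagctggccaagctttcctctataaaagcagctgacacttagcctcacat
S100a9: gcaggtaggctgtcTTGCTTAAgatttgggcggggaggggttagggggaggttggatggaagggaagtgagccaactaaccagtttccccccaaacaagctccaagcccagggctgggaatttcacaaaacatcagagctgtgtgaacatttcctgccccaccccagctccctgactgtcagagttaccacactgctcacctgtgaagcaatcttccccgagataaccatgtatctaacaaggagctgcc
The motifs searched, on both strands, were TTGCNNAA for C/EBP, GGAA and GAAA with any 2 bases between them for ETS-IRF composites, and GAAA and GAAA with any 2 bases between them for the interferon-stimulated response; the last 2 can overlap. The S100a9 window held TTGCTTAA, which starts 236 bases before the gene's start, and no other match of the 3 motifs. The S100a8 window and the windows of S100a1, S100a4, S100a6, S100a11 and S100a13 held none of these letters, which says nothing of the factors' binding. Of all 32851 windows of this length, 9.56% held the C/EBP motif, 2.3% the ETS-IRF composite and 2.98% the interferon-stimulated response motif. The windows of S100a1 and S100a13 share 104 bases on opposite strands.

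All 8 genes were well above background on all 16 arrays, so each value is measured and none is a bound. Signals are given relative to the 75th percentile of their array, which is set to 1. In the 56 comparisons of a member between 2 groups of a slide, the arrays of the groups overlapped in 0. A gene was called at an adjusted p under 0.05 by limma, with Benjamini-Hochberg adjustment over all 11964 genes tested in progenitors or 13339 in 32Dcl.3 cells. With loss of Irf8, 7 of the 8 members were called in MDPs, against 51.4% of all genes, and 8 of 8 in cMoPs, against 54.1%. With a change of at least 2-fold required as well, the counts were 3 members in MDPs, against 6.67% of all genes, and 7 in cMoPs, against 8.53%. These counts depend on the scaling. With arrays scaled to their median, S100a1 and S100a11 read 0.75 and 0.69 in cMoPs, under 2-fold. S100a6 then read -1.03 in MDPs and reached it. In MDPs 5 members rose and 2 fell, against 22.8% and 28.6% of all genes, and in cMoPs 5 rose and 3 fell, against 22.9% and 31.1%. The median log2 change of the members was 0.30 in MDPs and 0.68 in cMoPs, beside -0.024 and -0.025 over all genes tested. With arrays scaled to their median instead, the median of all genes was -0.12 and -0.34, and called genes split into 1579 higher and 3933 lower in MDPs (2732 and 3421 as reported) and 1093 and 7043 in cMoPs (2745 and 3725).

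**Figure D1:**
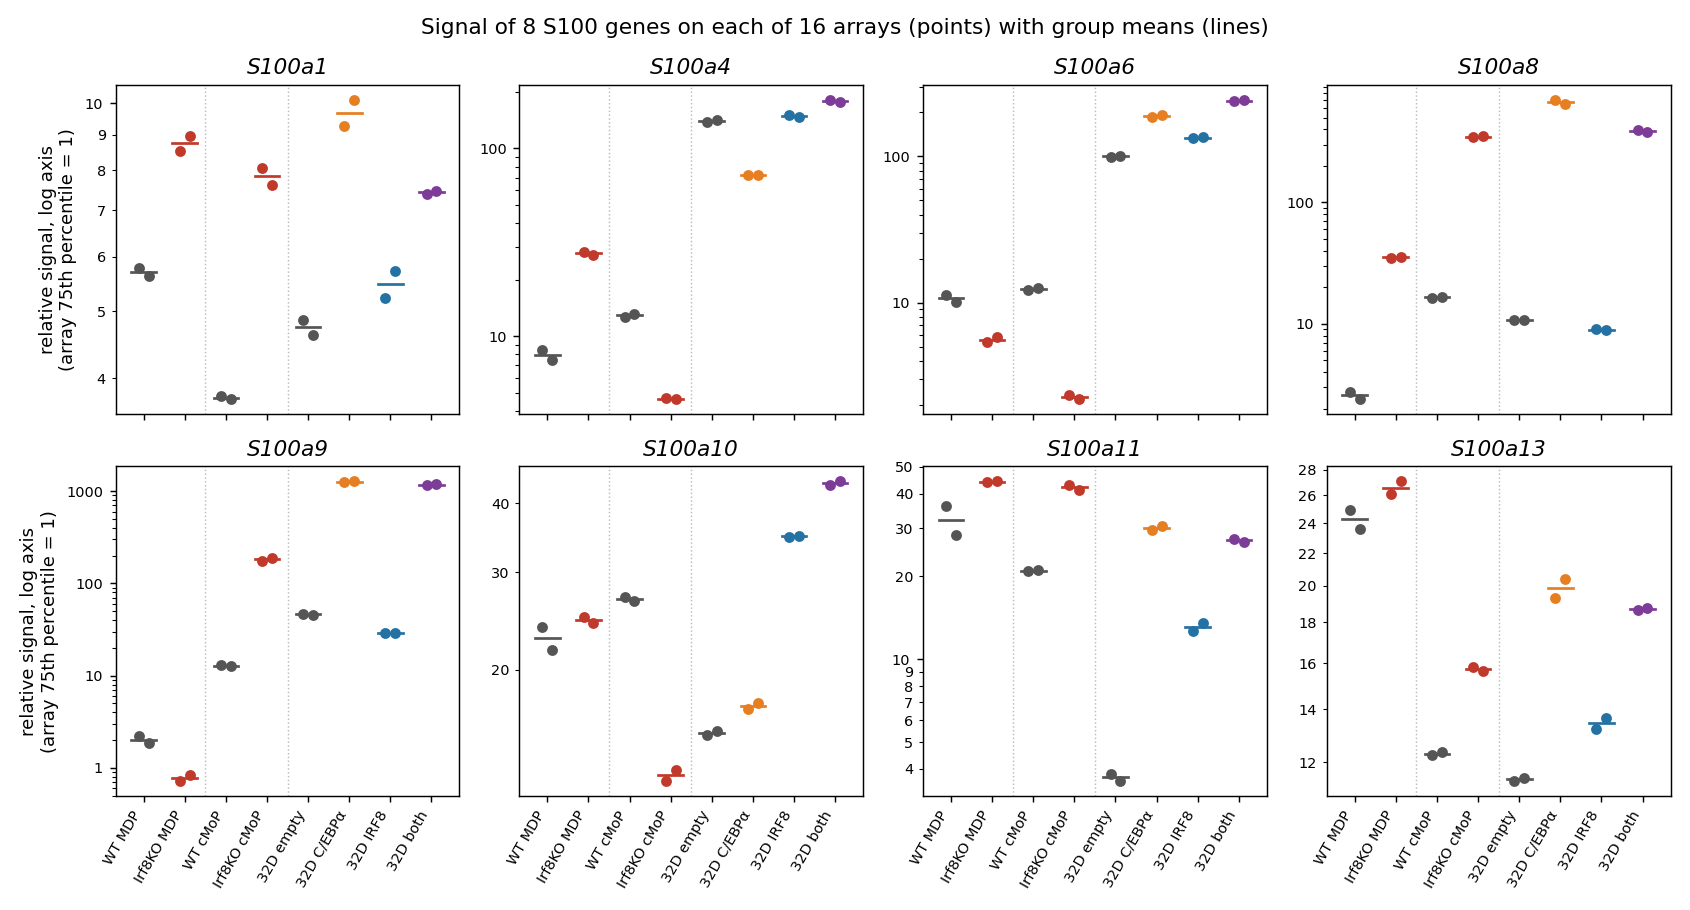
Relative signal of each of the 8 S100 genes (vertical log axis, array 75th percentile = 1) on the 2 arrays (points) of each of the 8 groups, with lines at group means. S100a8 and S100a9 stood high in Irf8KO cMoPs and in 32Dcl.3 cells with C/EBPalpha, and S100a9 was at its lowest in Irf8KO MDPs, at 0.73 and 0.84.

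S100a8 rose with loss of Irf8 in both progenitors. Its relative signal was 2.76 and 2.40 in WT MDPs and 35.0 and 35.7 in Irf8KO MDPs. In cMoPs it was 16.3 and 16.7 in WT and 345 and 351 in Irf8KO cells. The groups were far apart compared with the spread of their arrays, and S100a8 was the 25th highest rise of 11964 genes in MDPs and the 12th in cMoPs. The log2 change was 3.78 ± 0.056 (SE, 2 arrays per group), or 13.7-fold, in MDPs (limma, adjusted p = 2.01e-11) and 4.40 ± 0.056, or 21.1-fold, in cMoPs (limma, adjusted p = 2.19e-12).

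S100a9, the partner of S100a8 in calprotectin, moved in opposite directions in the 2 progenitors. Its relative signal was 2.19 and 1.87 in WT MDPs and 0.73 and 0.84 in Irf8KO MDPs. It was 13.1 and 12.7 in WT cMoPs and 175 and 189.9 in Irf8KO cMoPs. S100a9 thus fell 2.6-fold in the MDPs in which S100a8 rose, and rose 14.2-fold in the cMoPs. The log2 changes were -1.38 ± 0.083 (limma, adjusted p = 4.19e-07) and 3.82 ± 0.083 (limma, adjusted p = 1.01e-10). The knockout effect in cMoPs exceeded that in MDPs by 5.20 ± 0.12 for S100a9, the 4th highest such difference of 11964 genes, and by 0.62 ± 0.080 for S100a8 (limma, adjusted p = 4.39e-09 and 0.000318). In all, 4 genes (0.033% of those tested) fell at least 2-fold in Irf8KO MDPs and rose at least 2-fold in Irf8KO cMoPs. They were S100a9, the cathelicidin gene Camp, the lactoferrin gene Ltf and Hnf4a, and the latter 3 are named after their values were seen. Ltf was not well above background on any MDP array, and Camp was not in Irf8KO MDPs, where it was at least 1.66-fold lower than in WT MDPs. Hnf4a was well above background in WT MDPs only, so S100a9 was the only gene of the 4 that was well above background on all 8 progenitor arrays. S100a9 had a single probe, so no second probe checks its fall in Irf8KO MDPs. With normexp background correction that change was -0.90, which is under 2-fold.

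S100a4, a gene of motile and mesenchymal cells that monocytes also express, moved the opposite way to S100a9 at both stages. Its relative signal was 8.49 and 7.47 in WT MDPs and 28.2 and 27.1 in Irf8KO MDPs. It was 12.7 and 13.1 in WT cMoPs and 4.70 and 4.61 in Irf8KO cMoPs. S100a4 rose 3.47-fold in knockout MDPs, by 1.79 ± 0.056 on the log2 scale (limma, adjusted p = 3.00e-09). It fell 2.78-fold in knockout cMoPs, with a log2 change of -1.47 ± 0.056 (limma, adjusted p = 7.03e-09). The difference between the stages was -3.27 ± 0.080 (limma, adjusted p = 6.07e-09), the 15th lowest of all genes tested. Its second probe gave 1.78 and -1.52. Together with Blnk, Cd28, Cd86, Phlda3 and Rnd3, named after their values were seen, S100a4 made up the 6 genes (0.05%) that rose at least 2-fold in Irf8KO MDPs and fell at least 2-fold in Irf8KO cMoPs. Of these, S100a4, Cd28 and Phlda3 were well above background on all 8 progenitor arrays; Rnd3 was so in Irf8KO MDPs only, and Cd86 in neither WT MDPs nor Irf8KO cMoPs.

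**Figure D2:**
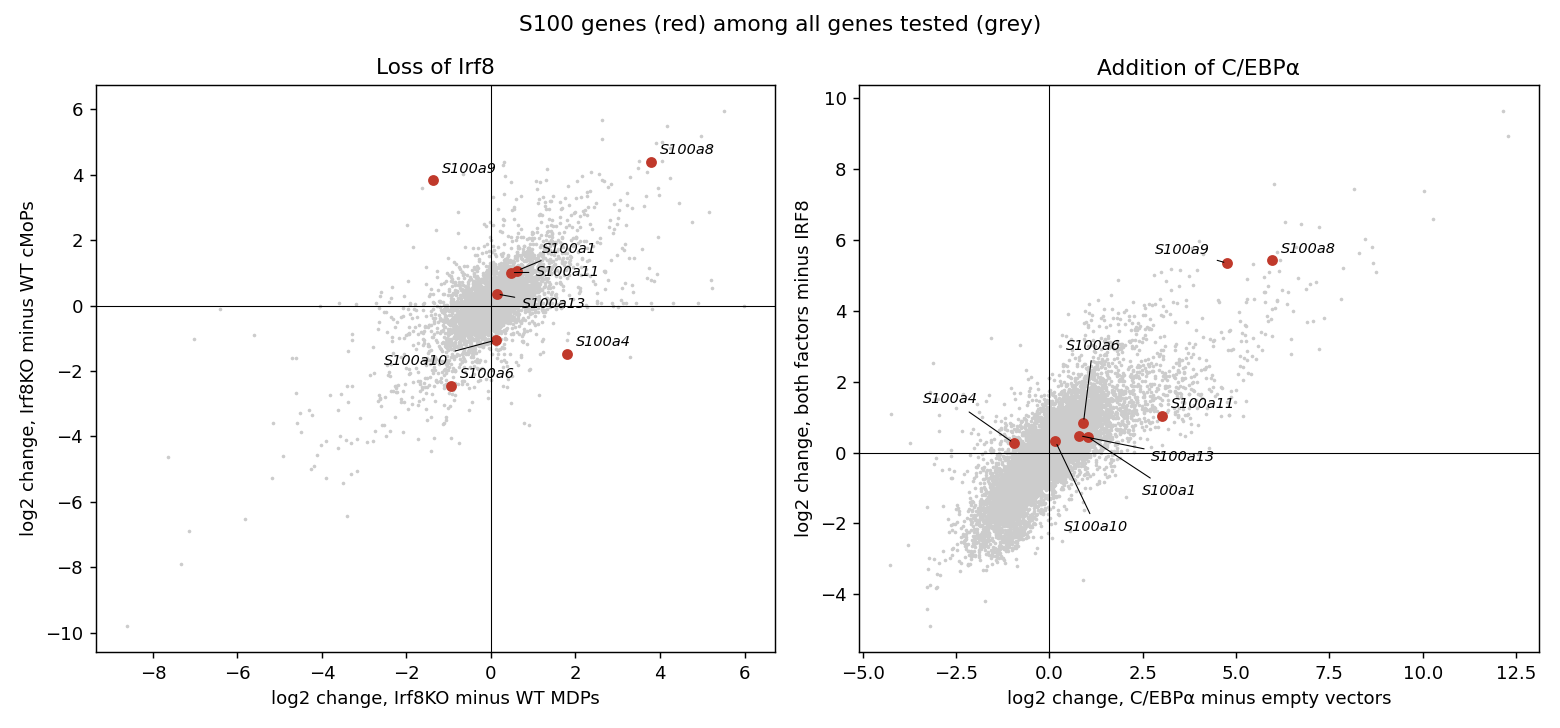
Log2 change of all genes tested (grey) and of the 8 S100 genes (red). Left, loss of Irf8 in MDPs (horizontal) against cMoPs (vertical), which share no arrays; right, C/EBPalpha added without IRF8 (horizontal) against with IRF8 (vertical), which share no arrays either. In the left panel S100a9 lies at -1.38 and 3.82 and S100a4 at 1.79 and -1.47, in the sparse quadrants of opposite change; in the right panel S100a8 lies at 5.96 and 5.43.

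S100a6, known as calcyclin, fell with loss of Irf8 at both stages. Its relative signal was 11.3 and 10.2 in WT and 5.37 and 5.83 in Irf8KO MDPs, and 12.2 and 12.5 in WT and 2.34 and 2.19 in Irf8KO cMoPs. The fall was 1.92-fold in MDPs and 5.47-fold in cMoPs (log2 change -0.94 ± 0.062 and -2.45 ± 0.062). The difference of -1.51 ± 0.088 between stages passed the test (limma, adjusted p = 1.47e-06). The arrays of each knockout group lay below both arrays of their WT group.

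Of the annexin partners, S100a10, the light chain of the annexin A2 heterotetramer, read 23.9 and 21.7 in WT and 24.9 and 24.3 in Irf8KO MDPs. Its change of 0.11 ± 0.047 did not pass the test (limma, adjusted p = 0.068), although the arrays did not overlap; without the first WT array it was 0.18 and passed (adjusted p = 0.00778). In cMoPs S100a10 fell 2.08-fold, from 27.1 and 26.6 to 12.6 and 13.2. S100a11, the partner of annexin A1, read 36.1 and 28.3 in WT MDPs, the widest spread on the log2 scale of any member in any group, and 44.2 and 44.3 in Irf8KO MDPs. In cMoPs it read 20.9 and 21.1 in WT and 43.1 and 41.3 in Irf8KO cells. S100a11 thus rose 1.38-fold and 2.01-fold while its chromosomal neighbour S100a10 did not pass the test or fell. The stage differences of S100a10 and S100a11 were -1.17 ± 0.066 and 0.54 ± 0.12 (limma, adjusted p = 1.23e-06 and 0.00882), and the latter did not pass when no filter on dim probes or no intensity trend was used.

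S100a1, best known from heart muscle, read 5.78 and 5.62 in WT and 8.54 and 8.96 in Irf8KO MDPs, and 3.76 and 3.73 in WT and 8.07 and 7.61 in Irf8KO cMoPs. It rose 1.54-fold and 2.09-fold, with log2 changes of 0.62 ± 0.047 and 1.07 ± 0.047. Its second probe gave 0.72 and 1.07. S100a13, the neighbour of S100a1, read 24.9 and 23.6 in WT and 26.1 and 27.1 in Irf8KO MDPs, and 12.2 and 12.4 in WT and 15.8 and 15.6 in Irf8KO cMoPs. These were the smallest called changes of the family, at 0.13 ± 0.038 and 0.35 ± 0.038 (limma, adjusted p = 0.0148 and 2.21e-05). With arrays scaled to their median they were 0.040 and 0.040 and passed no test, and without the second array of either group the change in MDPs was 0.094 or 0.11 and did not pass. Of the 8 differences between stages all were called, against 24.9% of all genes, and 4 (S100a4, S100a6, S100a9 and S100a10) were at least 2-fold, against 4.1%. The call of S100a13 was lost without the first Irf8KO MDP array (limma, adjusted p = 0.0540), the first WT cMoP array (0.0535) or the first Irf8KO cMoP array (0.0543), and that of S100a1 with arrays scaled to their median (0.14).

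**Figure D3:**
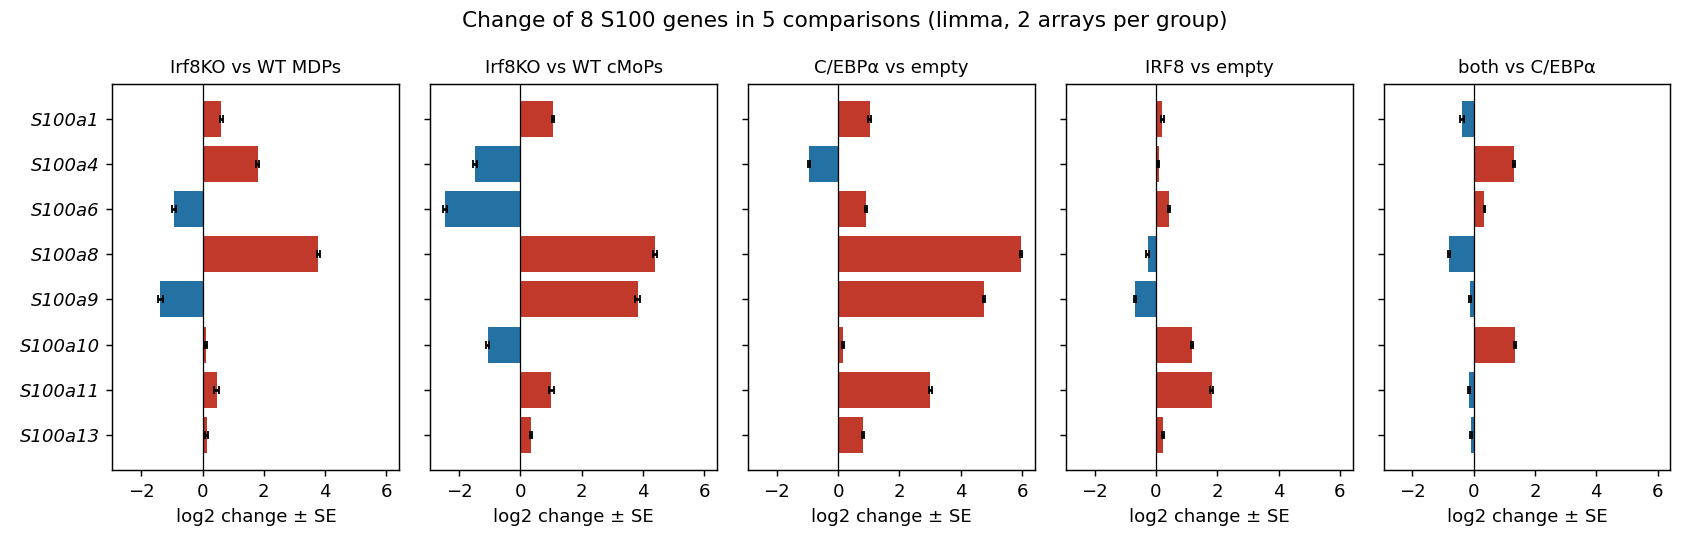
Log2 change (bars, horizontal axis) with its standard error (whiskers) of the 8 S100 genes in 5 comparisons fitted by limma with 2 arrays per group, red for higher and blue for lower. S100a8 rose by 3.78, 4.40 and 5.96 in the first 3 comparisons, and S100a9 has the opposite sign to S100a8 in Irf8KO MDPs only.

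In 32Dcl.3 cells, C/EBPalpha raised the calprotectin genes more than any other member. The relative signal of S100a8 was 10.8 and 10.8 with empty vectors and 699 and 642 with C/EBPalpha. That of S100a9 was 47.1 and 45.8 with empty vectors and 1259 and 1273 with C/EBPalpha. Both genes were at their highest here, with log2 changes of 5.96 ± 0.038, or 62.1-fold (limma, adjusted p = 4.22e-17), and 4.77 ± 0.028, or 27.2-fold (limma, adjusted p = 2.53e-17). They ranked 40th and 93rd among the rises of 13339 genes. In all, 8 of 8 members were called with C/EBPalpha, against 78.8% of all genes, and 4 of them changed at least 2-fold, against 23.4%. Beside the median log2 change of -0.14 over all genes tested (-0.45 with arrays scaled to their median), that of the members was 0.97.

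The third strong rise with C/EBPalpha was that of S100a11, from 3.83 and 3.62 to 29.5 and 30.4. Its log2 change was 3.01 ± 0.040, or 8.05-fold (limma, adjusted p = 2.49e-14). S100a6 went from 99.4 and 100.3 to 186 and 191, which is 1.89-fold. S100a1 went from 4.86 and 4.62 to 9.26 and 10.1, which is 2.04-fold, and S100a13 from 11.4 and 11.5 to 19.3 and 20.4, which is 1.74-fold. The second probe of S100a1 gave a log2 change of 0.84, under 2-fold. S100a4 was the member that fell, from 139 and 142 to 72.2 and 72.5, with a log2 change of -0.95 ± 0.028 (limma, adjusted p = 1.63e-11). S100a10 read 15.2 and 15.5 before and 17.0 and 17.4 after, a called change of 0.16 ± 0.028 that was -0.15 with arrays scaled to their median and -0.0063 with normexp background correction.

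IRF8 alone had its strongest effects on the annexin partners and not on calprotectin. S100a10 rose from 15.2 and 15.5 to 34.8 and 34.9, and S100a11 from 3.83 and 3.62 to 12.7 and 13.6. The log2 changes were 1.18 ± 0.028 and 1.82 ± 0.040 (limma, adjusted p = 1.29e-11 and 6.64e-12). These were the only members at least 2-fold changed, 2 of 8 against 5.1% of all genes, while 8 of 8 were called against 48.1%. S100a8 fell to 9.0 and 8.88, and S100a9 fell to 29.2 and 28.7. Their log2 changes were -0.27 ± 0.038 and -0.68 ± 0.028 (limma, adjusted p = 1e-04 and 2.31e-09), and the arrays did not overlap those with empty vectors. S100a6, S100a13, S100a1 and S100a4 had log2 changes of 0.43, 0.23, 0.21 and 0.09. The second probe of S100a1 gave 0.046. With normexp background correction S100a1 read 0.11 and was not called, and with no intensity trend neither S100a1 nor S100a4 was called. The call of S100a4 was lost without either of the first arrays of its groups, and that of S100a1 without either of the second ones.

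With both factors, calprotectin transcripts remained high. S100a8 read 391.6 and 378, below both arrays with C/EBPalpha alone, and S100a9 read 1163 and 1183, also below. Against C/EBPalpha alone the log2 changes were -0.80 ± 0.038 for S100a8 and -0.11 ± 0.028 for S100a9 (limma, adjusted p = 2.06e-09 and 0.00425). The change of S100a9 did not pass the test when the 75th percentile was taken over detected probes (adjusted p = 0.42). Against empty vectors S100a8 was 35.7-fold and S100a9 25.2-fold higher, and against IRF8 alone they were 43.0-fold and 40.5-fold higher and ranked 19th and 20th among rises. The comparisons among the 4 groups of 32Dcl.3 cells share arrays.

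S100a4 and S100a10 were the members that IRF8 raised at least 2-fold on top of C/EBPalpha. With arrays scaled to their median, S100a4 and S100a10 rose by 0.96 and 0.99, just under 2-fold. S100a8 was then the member changed at least 2-fold, at -1.15. S100a4 read 181 and 177 with both factors, and its log2 change against C/EBPalpha alone was 1.31 ± 0.028 (limma, adjusted p = 1.95e-12). S100a10 read 43.1 and 43.8, with a change of 1.34 ± 0.028 (limma, adjusted p = 1.65e-12). S100a6 read 238 and 243, S100a11 27.4 and 26.7, S100a13 18.7 and 18.7, and S100a1 7.40 and 7.47. S100a6 was higher than with C/EBPalpha alone by 0.35, and S100a11, S100a13 and S100a1 had log2 changes of -0.15, -0.09 and -0.38. The call of S100a11 was lost with quantile normalization (-0.039), in the authors' series values (-0.035) and with the percentile over detected probes (-0.065), and that of S100a6 with arrays scaled to their median (0.0040). The call of S100a13 was lost without the second array with C/EBPalpha (-0.047) or either array with both factors. Between both factors and C/EBPalpha alone 8 of 8 members were called, against 72.4%, and 2 were at least 2-fold changed, against 15.9%. Against empty vectors all 8 were called, and all 8 were higher, against 84.8% called in either direction and 38% higher among all genes. Of these, 5 were at least 2-fold changed, against 38.3%. Against IRF8 alone all 8 were called, against 82.2%, and 3 were at least 2-fold changed, against 30.1%. With arrays scaled to their median, the median of all genes moved to -0.75 against empty vectors and to -0.78 against IRF8, and not all 8 members were then higher. Against empty vectors S100a4 read -0.30, and S100a1 and S100a13 read -0.0066 and 0.055, neither of them called. Against IRF8 S100a1, S100a4, S100a10 and S100a13 read -0.25, -0.43, -0.38 and -0.22. The rises of these members in these comparisons therefore depend on the scaling.

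The interaction of the factors, the effect of both minus the sum of the effects of each, was called in 7 of 8 members, against 55.7% of all genes, and was at least 2-fold in 2, against 10.2%. It was -1.97 ± 0.056 for S100a11 (limma, adjusted p = 2.19e-10), whose level with both factors was near that with C/EBPalpha alone although IRF8 alone raised it 3.53-fold. It was 1.22 ± 0.039 for S100a4 (limma, adjusted p = 4.41e-10), which C/EBPalpha lowered without IRF8. With IRF8 present, C/EBPalpha changed S100a4 by 0.27, but by -0.43 with arrays scaled to their median. For the calprotectin genes the interaction had opposite signs, -0.53 ± 0.054 for S100a8 and 0.57 ± 0.040 for S100a9. For S100a6 it did not pass the test at -0.07 ± 0.040 (limma, adjusted p = 0.14), and it was -0.46 and passed with arrays scaled to their median.

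The ratio of 2 probes within an array does not depend on the scaling of arrays, and differences of that ratio between groups show unequal change of the genes. The log2 ratio of S100a8 to S100a9 was 0.33 and 0.36 in WT MDPs and 5.59 and 5.42 in Irf8KO MDPs. In cMoPs it was 0.32 and 0.40 in WT and 0.98 and 0.89 in Irf8KO cells. The ratio thus stood at nearly the same value in both WT progenitors and at 2 widely separate values in the knockouts. It changed by 5.16 in MDPs and by 0.58 in cMoPs, where the SD of replicates was 0.076. In 32Dcl.3 cells it was -2.13 and -2.08 with empty vectors, -0.85 and -0.99 with C/EBPalpha, -1.70 and -1.69 with IRF8, and -1.57 and -1.65 with both factors. C/EBPalpha alone moved it by 1.19, IRF8 alone by 0.41, and IRF8 added to C/EBPalpha by -0.69, beside a replicate SD of 0.058.

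The log2 ratio of S100a8 to S100a4 was -1.62 and -1.64 in WT MDPs, 0.31 and 0.40 in Irf8KO MDPs, 0.36 and 0.35 in WT cMoPs and 6.20 and 6.25 in Irf8KO cMoPs. Here the wider separation was in cMoPs, at 5.87 against 1.99 in MDPs, with a replicate SD of 0.036. In 32Dcl.3 cells it was -3.69 and -3.71 with empty vectors, 3.28 and 3.15 with C/EBPalpha, -4.06 and -4.05 with IRF8, and 1.11 and 1.10 with both factors. C/EBPalpha alone moved it by 6.91, IRF8 alone by -0.36, and IRF8 added to C/EBPalpha by -2.11, with a replicate SD of 0.047. An exact permutation test of 2 arrays against 2 cannot go below p = 0.333, two-sided, which all these comparisons reached. Exact two-sided permutation over 4 against 4 arrays, within slides or within levels of the other factor, gave p = 0.0556, the smallest it can give over 36 permutations, in 5 of the 6 tests (0.0667 after Benjamini-Hochberg adjustment). The exception was IRF8 on the ratio of S100a8 to S100a9 (exact permutation p = 0.556), whose changes without and with C/EBPalpha have opposite signs.

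**Figure D4:**
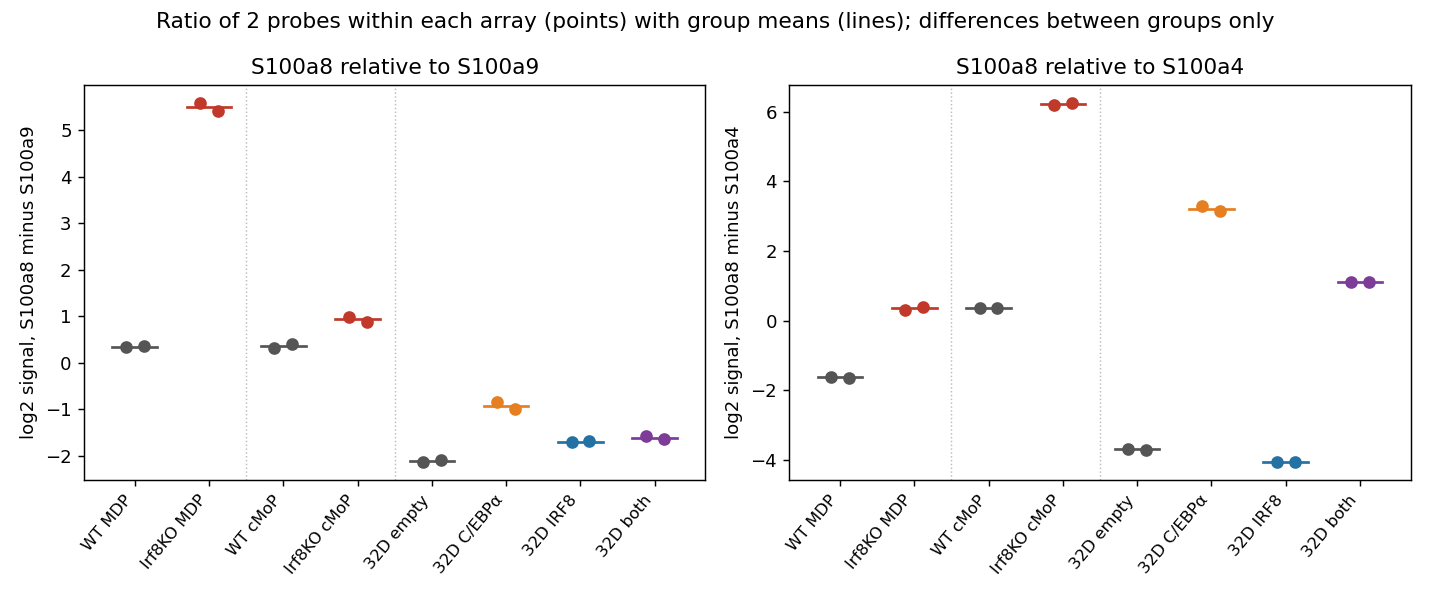
Log2 signal of S100a8 minus that of S100a9 (left) or S100a4 (right) on each array (points) with lines at group means. Levels of different probes are not comparable, so only differences between groups can be read: Irf8KO MDPs stand apart on the left at 5.59 and 5.42, and Irf8KO cMoPs on the right at 6.20 and 6.25.

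Across the 8 groups the members differed in how far they ranged. The highest group mean was 1621 times the lowest for S100a9, 260.05 times for S100a8, 106 times for S100a6 and 38.5 times for S100a4. It was 11.9 times for S100a11 and 3.37, 2.59 and 2.33 times for S100a10, S100a1 and S100a13. Orders across slides rest on the scaling to the 75th percentile. S100a8 ran from C/EBPalpha, both factors, Irf8KO cMoPs, Irf8KO MDPs, WT cMoPs, empty vectors and IRF8 down to WT MDPs. S100a9 ran from C/EBPalpha, both factors, Irf8KO cMoPs, empty vectors, IRF8, WT cMoPs and WT MDPs down to Irf8KO MDPs. S100a4 and S100a6 were higher in every 32Dcl.3 group than in any progenitor group. S100a4 was highest with both factors and lowest in Irf8KO cMoPs, as were S100a6 and S100a10. S100a11 and S100a13 were highest in Irf8KO MDPs and lowest with empty vectors. S100a1 was highest with C/EBPalpha and lowest in WT cMoPs, but its brightest probe was not the same in progenitors and 32Dcl.3 cells. Neighbouring groups in these orders overlapped in 2 places, S100a11 in WT MDPs and with C/EBPalpha, and S100a1 in WT MDPs and with IRF8.

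Likeness of pattern was measured as Pearson's r over the 16 arrays, after centring on the mean of each slide, among 11203 genes kept in both cell systems. It is a description, since arrays of a group share their treatment. The size of a change does not enter r: with C/EBPalpha S100a8 rose by 5.96 and Ptges, named below, by 0.45. S100a8 and S100a9 had r = 0.84, which placed S100a9 654th among the genes most like S100a8, and S100a8 was closer to S100a1 (0.94) and S100a13 (0.92). S100a11 and S100a13 had r = 0.95, and S100a4 and S100a9 had r = -0.52. S100a4 and S100a6 were each closest, within the family, to S100a10, at 0.60 and 0.62. The 5 genes most like S100a8 were Ptges (0.99), which encodes microsomal prostaglandin E synthase, Tprkb, Gas7, Gm13275 and Krtap6-5. Those most like S100a9 were Ankrd37 (0.97), Gng11, Ltf (0.96), Hsdl1 and Atp6v1e1, and those most like S100a4 were Agpat3 (0.94), Bmpr2, Dmac2, Gm8909 and Zfp386.

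The summed signal of late neutrophil genes was higher where S100a8 was higher within each slide, but not always where S100a9 was: in Irf8KO MDPs the sum was higher and S100a9 lower than in WT. Of 16 listed genes, 11 were tested in progenitors and 12 in 32Dcl.3 cells, and Ly6g and Olfm4 had no probe. Their summed relative signal was 11.1 to 12.5 in WT MDPs, 76.3 to 78.1 in Irf8KO MDPs, 20.7 to 21.2 in WT cMoPs and 298 to 306 in Irf8KO cMoPs. In Irf8KO MDPs 6 rose and 3 fell, with Mmp8 (neutrophil collagenase) at 5.15 and Wfdc21 at 2.63, and with Camp lower; Ltf and Ngp, a neutrophil granule protein, were not well above background in either MDP group. In Irf8KO cMoPs 11 of 11 rose, with Wfdc21 at 5.66 and the chitinase-like gene Chil3 at 4.10. Among all genes tested, 22.8% rose and 28.6% fell in Irf8KO MDPs, and 22.9% and 31.1% in Irf8KO cMoPs. In 32Dcl.3 cells the sum was 38.7 with empty vectors, 1484 to 1488 with C/EBPalpha, 19.2 to 20.1 with IRF8 and 275 to 276 with both factors. Against C/EBPalpha alone, both factors lowered 12 of 12 by at least 2-fold, at a median of -2.36, beside -0.80 for S100a8 and -0.11 for S100a9. In that comparison 1130 of the 13339 genes tested fell at least 2-fold, and 15.9% changed at least 2-fold in either direction. In these bulk samples more cells of a type and more RNA per cell cannot be told apart, and the part of late neutrophil cells in the S100 changes was not tested.

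Markers of other lineages differed with genotype and factor as well, in short lists to be read beside all genes. The shares of all genes that rose and fell were 22.8% and 28.6% in Irf8KO MDPs and 22.9% and 31.1% in Irf8KO cMoPs. Counts near these shares, such as that of T and NK cell markers in cMoPs, do not set a list apart. Primary granule genes, such as Mpo, rose in 5 of 5 in both knockouts, with sums of 6154 to 6172 against 4920 to 5095 in WT MDPs and 3231 to 3309 against 2294 to 2390 in WT cMoPs. Of the monocyte and macrophage list 4 of 7 tested fell and 3 rose in Irf8KO MDPs, with a summed signal of 257 to 258 against 337 to 344 in WT, and in cMoPs 5 fell and 2 rose, at 92.2 to 94.9 against 232 to 234. Basophil, mast cell and eosinophil markers fell in 7 of 7 in MDPs, from 56.1 to 58.3 in WT to 39.4 in Irf8KO cells, and in cMoPs 3 rose and 3 fell, at 26.6 to 27.5 and 30.1 to 31.3. All 7 were well above background in WT MDPs, and 3 to 4 were in Irf8KO MDPs. Genes entered if well above background throughout at least 1 group, so the filter partly sets this count. Both erythroid markers tested fell in both knockouts, in cMoPs from a sum of 7.53 to 7.57 to one of 0.36 to 0.40 and in MDPs from a sum of 13.8 to 14.3 to one of 0.12 to 0.15, where neither was well above background. B cell markers rose in 3 of 3 tested in MDPs, with sums of 51.2 to 51.8 against 36.4 to 37.2, and in cMoPs 2 rose and 1 fell. T and NK cell markers rose in 3 of 4 in MDPs, with sums of 197 to 203 against 155 to 157, and in 1 of 4 in cMoPs, at 120.5 to 124 against 61.2 to 62.0. All 4 were well above background in Irf8KO MDPs and 2 in WT MDPs, so the filter bears on that count too. Dendritic cell markers rose in 3 of 5 in MDPs, at 176 to 181 against 147 to 154, and in cMoPs 2 rose and 2 fell. Of 2 megakaryocyte markers tested, 1 fell in each knockout.

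In 32Dcl.3 cells, 31.6% of all genes rose and 47.2% fell with C/EBPalpha, 22.7% and 25.4% with IRF8, and 38% and 46.8% with both factors. Counts near these shares do not set a list apart from all genes. C/EBPalpha raised 5 of 5 primary granule genes, from sums of 558 to 577 to 2574 to 2619, and IRF8 lowered 5 of 5, to 197 to 198. With both factors the sum was 881 to 908. Monocyte and macrophage markers rose with IRF8 in 5 of 6, from 56.0 to 56.7 to 155 to 157, and with C/EBPalpha 3 rose and 3 fell, at 33.9 to 36.6, against 186 to 189 with both factors. Dendritic cell markers rose with both factors in 6 of 6, from 246 to 261 to 555 to 583, with C/EBPalpha in 2 of 6 (2 fell) and with IRF8 in 2 of 6. Erythroid markers fell in 3 of 4 with C/EBPalpha, IRF8 and both factors, from 7.92 to 8.03 to 1.51 to 1.60, 2.48 to 2.49 and 1.49 to 1.5. Basophil, mast cell and eosinophil markers rose in 4 of 6 and fell in 1 with C/EBPalpha, rose in 1 and fell in 5 with IRF8, and rose in 1 and fell in 4 with both factors. Their sum was 37.1 to 37.2 with empty vectors and lower in each of these, at 19.8 to 20.1, 26.2 to 27.6 and 5.38 to 5.55. Of 4 megakaryocyte markers 3 fell with C/EBPalpha, with IRF8 and with both factors, and 1 rose with IRF8 and with both factors. B cell markers rose in 3 of 4 with C/EBPalpha, in 1 with IRF8 (1 fell) and in 2 with both factors (1 fell). Of these 4, however, 2 to 3 were well above background with C/EBPalpha against 4 with empty vectors, at sums of 2.17 and 1.60. Both T and NK cell markers tested rose with C/EBPalpha, while 1 fell with IRF8 and 1 rose and 1 fell with both factors. The part of these cells in the S100 changes was not tested.

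The receptors of extracellular S100A8/A9 and their signalling genes were tested in 8 of 10 listed in progenitors and 10 of 10 in 32Dcl.3 cells. In Irf8KO MDPs 6 rose and 1 fell, against 22.8% and 28.6% of all genes, with a median of 0.32 beside -0.024 over all genes. Cd33, a sialic acid receptor, rose by 2.92, Tlr4 by 1.13 and its co-receptor Ly96 (MD-2) by 0.32, and Bsg (basigin, or EMMPRIN) fell by 0.30. In Irf8KO cMoPs 3 rose and 1 fell, against 22.9% and 31.1%, with Cd33 at 3.11 (well above background on 1 of 2 WT arrays), Tlr4 at 1.55 and Ly96 at -0.76. With C/EBPalpha 6 rose and 2 fell, against 31.6% and 47.2% of all genes, with Cd33 at 3.84, the co-receptor Cd14 at 3.11, the scavenger receptor Cd36 at least 6.16-fold higher, and Bsg at -0.78. IRF8 alone raised 3, among them Cd14 by 1.77, and lowered 3, among them Tlr4 at -0.35; these counts of 10 were near the 22.7% and 25.4% of all genes that rose and fell. Added to C/EBPalpha, IRF8 raised 3 and lowered 5, with Ly96 at 1.25, Tlr4 at -1.51 and Cd33 at -1.35, against 34.4% and 37.9% of all genes, and these counts of 10 too were near the background. Ager, which encodes RAGE, was not called with C/EBPalpha (0.56, well above background on 1 of 2 arrays) or IRF8 (not well above background). With both factors it was called higher than with empty vectors (1.19, limma, adjusted p = 0.00334) and than with IRF8 (1.35, limma, adjusted p = 0.00152). It was, however, well above background on 1 of 2 arrays with both factors and on 2 of 2 with empty vectors. Its log2 relative signal with empty vectors, -4.75, was near that of the faintest detected probe of those arrays (-5.13 and -5.11). These calls therefore do not show a measured rise of Ager.

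Of 14 intracellular partners of S100 proteins, 5 rose and 6 fell in Irf8KO MDPs, with Cybb, an NADPH oxidase subunit, at 0.65, Anxa6 at -0.31 and Ppp5c at -0.29. In Irf8KO cMoPs again 5 rose and 6 fell. Anxa1, the partner of S100A11, rose by 1.11 and Cybb by 0.91. Ahnak, the scaffold bound by S100A10 with annexin A2, had a change of -2.26, and Anxa6 of -1.03. Anxa2, the partner of S100A10, rose by 0.23, so in knockout cMoPs S100a11 and Anxa1 both rose, whereas S100a10 fell with Ahnak but not with Anxa2. With C/EBPalpha 11 rose and 2 fell: Cybb was at least 18.7-fold higher, Anxa1 rose by 3.62, Cacybp (calcyclin-binding protein) was at -1.46 and Ppp5c at -1.03. With IRF8 8 rose and 2 fell, led by Anxa1 at 1.52 and Anxa5 at 0.98. Of all genes, 22.8% rose and 28.6% fell in Irf8KO MDPs, 22.9% and 31.1% in Irf8KO cMoPs, 31.6% and 47.2% with C/EBPalpha, and 22.7% and 25.4% with IRF8. The medians of this list were -0.031, 0.028, 0.65 and 0.19 in these 4 comparisons, beside -0.024, -0.025, -0.14 and -0.031 over all genes.

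Of 8 other S100 genes and S100pbp, which encodes an S100-binding protein, 3 were tested in progenitors and 4 in 32Dcl.3 cells. In Irf8KO MDPs 0 of 3 were called (limma), and in Irf8KO cMoPs S100a16 rose by 0.26. With C/EBPalpha S100a16 rose by 0.60, S100pbp had a change of -1.09, and S100a3 and S100a5 were not called at 0.19 and -0.13. With IRF8 added to C/EBPalpha, S100a16 was at -1.43 and S100a5 at -0.99, and S100pbp was at 0.55.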

How the data were processed

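Agilent Feature Extraction 10.7.3.1 made the deposited intensity values, per the file headers, with background removed and spatial trends corrected on each array, together with the deposited flags (other values) for background, saturation and outliers. The authors' deposited series values are intensity values scaled further, by a constant per array in progenitors and otherwise in 32Dcl.3 cells, with software not given in the sources used here. The file headers name build mm9, and symbols were taken from RefSeq through the probes' accessions (GRCm38.p6).

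Spots of a probe were averaged without outliers, and the log2 75th percentile of each array was subtracted from log2 signal. Probes entered if well above background throughout at least 1 group of their system (progenitors or 32Dcl.3 cells); the brightest probe stood for a gene. In each system limma 3.58.1 (R 4.3.3) fitted means of 4 groups over 8 arrays, with an intensity trend, two-sided tests and Benjamini-Hochberg adjustment within a comparison. Where a listed gene was measured in the brighter group only, "at least N-fold" sets it against the higher of the dim probe and the faintest detected probe of each array.

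The members and lists were chosen with earlier results of these data known. All members were named, and of each list any receptor, the 2 largest called rises and falls, and genes that the text says were named after their values were seen. Anxa2 in Irf8KO cMoPs was named outside this rule, as the partner of S100A10. A listed gene that the rule names is not reported here. The replicate numbers did not pair the arrays (correlations of -0.065 to 0.071). The number of arrays limits the precision.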

Additional observations from a re-analysis of the deposited data

Results flagged for a closer look

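The effect of Irf8 loss differed between cMoPs and MDPs for all 8 members by the test of the difference itself (limma, difference of log2 changes, cMoPs minus MDPs). It was 5.20 for S100a9, 0.62 for S100a8, 0.54 for S100a11, 0.45 for S100a1 and 0.22 for S100a13, and -1.17 for S100a10, -1.51 for S100a6 and -3.27 for S100a4. S100a9 and S100a4 changed sign between the stages, and S100a8, S100a6, S100a1, S100a11 and S100a13 kept theirs. The call of S100a13 was lost without the first Irf8KO MDP array, the first WT cMoP array or the first Irf8KO cMoP array (limma, adjusted p = 0.0540, 0.0535 and 0.0543), that of S100a1 with arrays scaled to their median (0.14), and that of S100a11 with no filter on dim probes or no intensity trend (0.0659 and 0.0697). Stage coincides with slide and with sex-linked transcripts, so these cannot be told apart.

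The effect of IRF8 differed with C/EBPalpha for 7 members by the test of the interaction. It was 1.22 for S100a4, 0.57 for S100a9 and 0.16 for S100a10, and -0.32 for S100a13, -0.53 for S100a8, -0.59 for S100a1 and -1.97 for S100a11. The arrays with C/EBPalpha had a lower 75th percentile of signal (147 to 218) than those without (367 to 460), and its part in these differences was not tested.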

How the results depend on the processing

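The changes of S100a8 kept their direction and call under every alternative run in every comparison. Those of S100a9 did so except for the lost call against C/EBPalpha alone given above, and ranged from -1.49 to -0.90 in Irf8KO MDPs and from 3.51 to 3.88 in Irf8KO cMoPs.

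With arrays scaled to their median, S100a13 read -0.00054 for the difference between stages. S100a10 read -0.15 for C/EBPalpha, -0.38 for both factors against IRF8 and -0.23 for the interaction. Against empty vectors S100a1 read -0.0066 and S100a4 -0.30 for both factors, and against IRF8 S100a1 read -0.25, S100a4 -0.43 and S100a13 -0.22. The members changed at least 2-fold were then 3 for both factors against empty vectors, 1 against C/EBPalpha (S100a8, at -1.15) and 1 for the interaction. With loss of Irf8, S100a6 then reached 2-fold in MDPs, and S100a1 and S100a11 fell short of it in cMoPs. Called genes under that scaling split into 2676 higher and 7936 lower for C/EBPalpha, against 4221 and 6290, and into 5571 and 4964 with the percentile over detected probes. For both factors against empty vectors the splits were 2500 and 8871 under median scaling and 6532 and 4969 under detected probes, against 5074 and 6238. With that percentile, 5 members were called for both factors against C/EBPalpha, and S100a6 read 0.016 for the interaction. With normexp, S100a10 and S100a13 read -0.018 and -0.017 in Irf8KO MDPs and S100a10 read -0.0063 for C/EBPalpha. S100a13 against C/EBPalpha alone read 0.0080 after quantile normalization and 0.0034 in the authors' series values. The cause of these changes was not tested.

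The ratio of S100a8 to S100a9 kept its direction. It moved under quantile normalization to 4.94 in MDPs, 0.71 in cMoPs, -4.23 between stages, 1.28 for C/EBPalpha, -0.46 for both factors against C/EBPalpha and -0.87 for the interaction. It was 4.17 in MDPs and -3.56 between stages with normexp, and 1.34, -0.41 and -0.83 for C/EBPalpha, both against C/EBPalpha and the interaction in the authors' values. Leaving out 1 array gave 5.07 to 5.24 in MDPs, -4.67 to -4.50 between stages, 1.12 to 1.26, -0.76 to -0.62 and -1.17 to -1.03.

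The ratio of S100a8 to S100a4 kept its direction too. Quantile normalization gave 1.87 in MDPs, 6.09 in cMoPs, 4.22 between stages, 6.80 for C/EBPalpha, -0.42 for IRF8 and -1.65 for the interaction. Normexp gave 1.76 in MDPs, 4.08 between stages and -2.16 for both factors against C/EBPalpha. The authors' values gave 6.64 for C/EBPalpha, -0.46 for IRF8, -1.94 for both against C/EBPalpha and -1.48 for the interaction. Leaving out 1 array gave 1.94 to 2.03 in MDPs, 3.84 to 3.93 between stages, 6.85 to 6.97, -2.17 to -2.04 and -1.81 to -1.69.

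With the replicate number as a block, 7 members were called in Irf8KO MDPs and 8 in Irf8KO cMoPs, and the block changed no call of a member or direction. The numbers do not pair the arrays.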
